A study of Mus musculus with 6 samples.

Results

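The NR3 nuclear receptors were examined in the hippocampus of mice lacking p300 in adult excitatory forebrain neurons. The genes examined were the estrogen receptor genes Esr1 and Esr2, the progesterone receptor gene Pgr, the glucocorticoid receptor gene Nr3c1, the mineralocorticoid receptor gene Nr3c2 and the estrogen-related receptor genes Esrra, Esrrb and Esrrg. These 8 genes were taken by symbol from the 55471 genes of the deposited count table.

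Bulk RNA-seq of the hippocampus was available for 3 p300-ifKO mice and 3 control littermates, with 1 mouse per library. The paper's methods describe these mice as male, so the levels given below are those of males. All were C57BL/6 mice of 3 to 6 months that received 5 tamoxifen administrations (20 mg/ml in corn oil), so both groups were exposed to an estrogen receptor ligand. The p300-ifKO mice carried floxed Ep300 alleles and the Camk2a-driven creERT2 transgene, in which Cre is joined to a tamoxifen-responsive portion of an estrogen receptor. Recombination is therefore limited to excitatory forebrain neurons, whereas glia, interneurons and vessels in the tissue keep Ep300. The labels describe the controls in conflicting ways, since the treatment protocol gives littermates without creERT2 and the description field of the control libraries lists Camk2a_creERT2. In all 3 control libraries, the counts of Esr1 and of Arsi were well below those of every p300-ifKO library.

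NR3 receptors are transcription factors that bind DNA through a domain of paired zinc fingers. The steroid receptors are activated by estrogens, progesterone, glucocorticoids or mineralocorticoids, whereas the estrogen-related receptors are orphan receptors that act without estrogen and are known for regulating mitochondrial and energy metabolism genes. In the hippocampus, the mineralocorticoid and glucocorticoid receptors are best known as the high- and low-affinity receptors for corticosterone. p300 and its paralogue CBP are acetyltransferases that many nuclear receptors recruit as coactivators.

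The letters shown next are the codons around the recognition helix of the first zinc finger, shown because the receptor contacts DNA there. They were read from the longest open reading frame of GENCODE M21 transcripts (GRCm38), 5′ to 3′, and the capitals mark 18 bases of the helix. The sequences of 7 members are given.
Esr1: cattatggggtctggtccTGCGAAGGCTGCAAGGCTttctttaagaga
Esr2: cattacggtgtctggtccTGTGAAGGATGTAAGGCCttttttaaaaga
Esrra: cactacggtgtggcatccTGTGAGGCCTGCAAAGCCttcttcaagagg
Esrrb: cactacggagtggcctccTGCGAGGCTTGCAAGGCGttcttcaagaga
Esrrg: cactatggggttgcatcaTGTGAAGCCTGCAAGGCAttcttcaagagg
Pgr: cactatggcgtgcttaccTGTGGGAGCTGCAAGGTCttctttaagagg
Nr3c2: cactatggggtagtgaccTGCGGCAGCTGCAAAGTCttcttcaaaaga
Over these 48 bases, Esr1 and Esr2 were identical at 40, Esrra was identical to Esrrb and to Esrrg at 41, and Pgr was identical to Nr3c2 at 38. Between these groups the identity reached 37 bases, for Esr1 and Esrrg, and 36 for Pgr and Esrra. Over the 18 bases in capitals Esr1 was identical to Esrrg at 15 and to Esr2 at 14, so these letters alone did not separate the groups.

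Reads were 50 bases long, so an error-free read of Esr1 could match another receptor only where both carry such a stretch. The longest run of identical coding bases that Esr1 shared with another member was 17 bases, with Esr2. It starts in the last codon of the zinc finger letters shown above and is marked by capitals in the stretches below. They are shown because Esr2 is the member closest to Esr1.
Esr1: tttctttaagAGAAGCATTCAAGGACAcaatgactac
Esr2: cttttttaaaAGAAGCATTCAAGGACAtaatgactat
Runs shared with the other members were between 11 bases (Pgr and Nr3c2) and 15 bases (Esrrb), and the number of 50-base stretches that any member shared with another was 0. The mouse Esr1 reading frame was used here, not the sequence of the transgene. Stretches shared with genes outside the family were few, at most 2.254% of the stretches of Nr3c2, all in the opposite-strand gene Gm10649, and 1.49% of those of Esrra, in Trmt112 and Mir6990. The strand setting of the counting is not stated, so these parts of Nr3c2 and Esrra are uncertain.

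The libraries held between 23151568 and 28433823 counts. Ep300, the targeted gene, had 1545, 1474 and 2334 normalized counts (counts divided by the DESeq2 size factor) in controls, against 478, 1350 and 912 in p300-ifKO mice. All 3 p300-ifKO values were below the control range, but the change did not pass (log2 fold change −0.97, SE 0.33, DESeq2 adjusted p 0.991). The paper describes a truncated p300 protein in p300-ifKO mice and loss of p300 by immunostaining, so these counts do not measure that loss. Arsi, a neighbour of Camk2a, gave 28.8, 24.2 and 38.8 normalized counts in controls, against 204, 168 and 171 in p300-ifKO mice (log2 fold change 2.56, SE 0.27, DESeq2 adjusted p 2.98e-17). The paper states that Arsi is carried on the DNA from which the Cre driver strain was made. Excitatory neuron markers summed to between 169782 and 195787 normalized counts in control and between 179652 and 195215 in p300-ifKO libraries. The hypothalamus is rich in sex steroid receptors. Of its 8 markers Kiss1 was at 0 in all libraries, and the list summed to at most 57 in control and 87 in p300-ifKO libraries.

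Hippocampal levels of the receptors were compared per length, in TPM (counts divided by exonic length, scaled to a sum of 1000000 per library). In control mice Nr3c2 was the most abundant member, with 111 ± 1.29 TPM (SD, n = 3), followed by Nr3c1 with 39.8 ± 5.09 TPM and Esrra with 36.6 ± 0.421 TPM. Esrrg had 11.5 ± 0.893 TPM and Pgr 9.26 ± 0.715 TPM. The lowest members were Esrrb with 1.18 ± 0.0622 TPM, Esr1 with 1.14 ± 0.165 TPM and Esr2 with 0.172 ± 0.139 TPM.

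**Figure D1:**
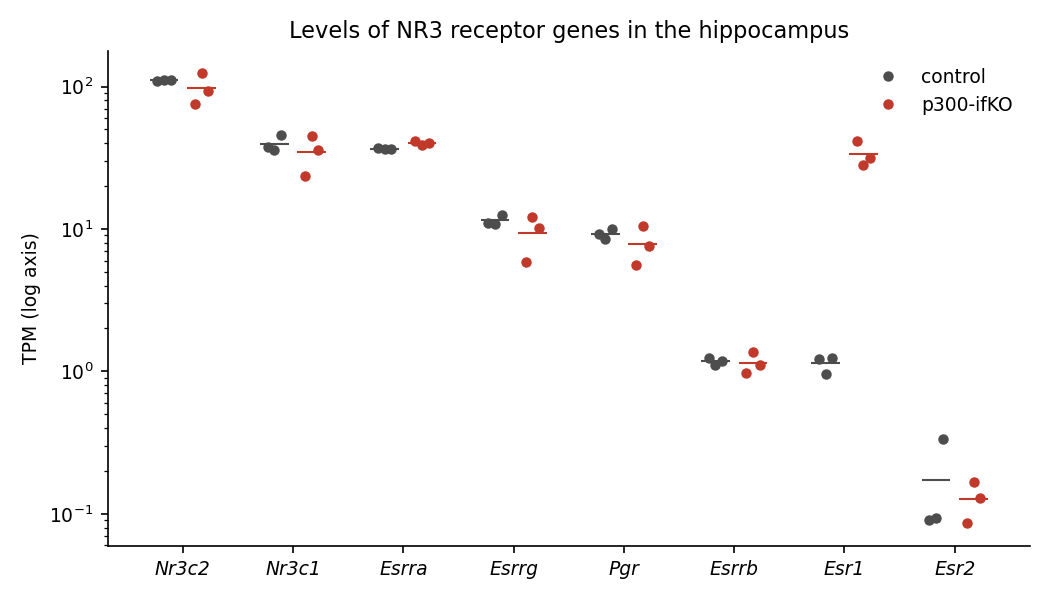
TPM of the 8 receptor genes on a log axis, with 1 point per library, control libraries in dark grey and p300-ifKO libraries in red, and a line at the mean of each group. Genes are ordered by their control mean, from Nr3c2 at 111 TPM to Esr2 at 0.172 TPM, and in Esr1 the groups are widely apart.

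The order of neighbouring genes did not always exceed the spread between mice. Nr3c1 and Esrra overlapped in the control libraries (ratio of means 1.09), as did Esrrb and Esr1 (1.03). Esrrg lay above Pgr within each of the 6 libraries, with a ratio of means of 1.24, although their ranges over all libraries overlapped. The other 4 steps were at least 2.79-fold and their ranges over the 6 libraries were apart.

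Placed among 48 nuclear receptor genes, Nr3c2 ranked number 3 in control TPM, after Thra and Nr1d1, the thyroid hormone receptor alpha and a clock repressor. Nr3c1 ranked 11, Esrra 12, Esrrg 20, Pgr 26, Esrrb 35, Esr1 36 and Esr2 40. Among genes with a count in any library, Nr3c2 lay at percentile 95.4, Esr1 at 48.9 and Esr2 at 27.4.

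Esr1 (ENSMUSG00000019768, chromosome 10, 4611593 to 5005614, plus strand, GRCm38) encodes estrogen receptor alpha. It stood at 109, 87.2 and 108 normalized counts in controls and at 4217, 2416 and 2868 in p300-ifKO mice. Every p300-ifKO library was far above every control library. The log2 fold change was 4.96 (SE 0.24, 95% interval 4.50 to 5.43), which is 31.2-fold, and the adjusted p was 4.47e-92 by DESeq2 and 0.00126 by edgeR. The creERT2 transgene carries estrogen receptor sequence, and counts per gene cannot tell transgene reads from those of the endogenous gene. The paper reports that the rise is confined to the Esr1 exons contained in the creERT2 construct.

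The rise changed the apparent makeup of the family. Esr1 made up 0.541% ± 0.0692 (SD, n = 3) of the summed TPM of the 8 members in control mice and 15.5% ± 5.37 in p300-ifKO mice, at 33.7 ± 7.04 TPM, beside 34.6 ± 10.7 TPM for Nr3c1 and 40.2 ± 1.32 TPM for Esrra. These TPM divide by the full exonic length of 13661 bases, so reads from a shorter transcript are understated. Nr3c2 took 52.8% ± 1.61 of the sum in control and 43.1% ± 4.40 in p300-ifKO mice. Without Esr1, the sum was 206, 205 and 218 TPM in control and 153, 231 and 189 TPM in p300-ifKO mice, with overlap between groups.

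None of the other 7 receptors passed the test. In DESeq2, 1 of the 8 members had an adjusted p under 0.05, Esr1, where 0.00610% of the 32773 genes tested passed. At an unadjusted p under 0.05 it was again Esr1 alone, against 1.32% of genes. In edgeR, where Esr2 was below the count filter, 1 of 7 members passed, Esr1, against 0.0117% of 17131 genes, and the adjusted p of the other 6 lay between 0.745 and 0.978. The median log2 fold change was −0.15 over the 8 members and −0.16 over the 7 without Esr1, beside −0.046 over all tested genes and −0.0051 over the 17070 genes with a mean of at least 10 normalized counts. In bulk tissue, fewer cells of a type and less RNA per cell cannot be told apart, which holds for each receptor.

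Esr2 (chromosome 12, 76120419 to 76177259, minus strand), which encodes estrogen receptor beta, was nearly undetected. Its raw counts were 2, 2 and 7 in controls and 2, 4 and 3 in p300-ifKO mice. Both groups shared values, and the summed counts were 11 (exact 95% Poisson interval 5.49 to 19.7, counting error only) and 9 (4.12 to 17.1). Its log2 fold change was −0.38 (SE 1.09, DESeq2 adjusted p 0.991), with a 95% interval from −2.52 to 1.76, or from 0.174-fold to 3.38-fold. Changes within these limits remain compatible with the counts at this depth. For Esr1 the lower end of the interval was 22.6-fold.

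Pgr (chromosome 9, 8899833 to 8968611, plus strand) is a textbook target of estrogen receptor alpha as well as a steroid receptor. It measured 516, 491 and 543 normalized counts in controls and 352, 567 and 432 in p300-ifKO mice. The p300-ifKO libraries spanned the control range, with replicates 1 and 3 below it and replicate 2 above it. The log2 fold change was −0.20 (SE 0.20, 95% interval −0.59 to 0.20, DESeq2 adjusted p 0.991). In percent the interval runs from −33.5% to 14.7%. A link between Pgr and the Esr1 counts was not tested.

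Nr3c1 (chromosome 18, 39410545 to 39519421, minus strand), the glucocorticoid receptor gene, gave 1897, 1854 and 2228 normalized counts in controls. The p300-ifKO mice had 1335, 2169 and 1833. Here p300-ifKO replicates 1 and 3 were below the control range, and replicate 2 lay within it. Its log2 fold change was −0.16 (SE 0.20, 95% interval −0.55 to 0.23, DESeq2 adjusted p 0.991).

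Nr3c2 (chromosome 8, 76899442 to 77245012, plus strand), the mineralocorticoid receptor gene, gave 4629, 4861 and 4610 normalized counts in controls, against 3647, 5060 and 4048 in p300-ifKO mice. As in Pgr, replicates 1 and 3 of the p300-ifKO mice lay below the control range and replicate 2 above it. The log2 fold change was −0.14 (SE 0.15, 95% interval −0.45 to 0.16, DESeq2 adjusted p 0.991).

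The balance of both corticosterone receptors was compared directly, since neurons carrying both respond to low and high hormone. The ratio of Nr3c2 to Nr3c1 per length was 2.90, 3.11 and 2.46 in controls and 3.24, 2.77 and 2.62 in p300-ifKO mice, and these values overlapped. The mean log2 ratio was 1.49 ± 0.17 (SD, n = 3) and 1.52 ± 0.16, and the difference of 0.0292 was smaller than the spread between mice (two-sided exact permutation test, p = 0.9, where the smallest p that 3 against 3 allows is 0.1). Its sign changed without control replicate 3 (−0.0672) and without p300-ifKO replicate 1 (−0.0601).

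Among the estrogen-related receptors, Esrra (chromosome 19, 6910977 to 6921813, minus strand) was the only member besides Esr1 whose groups did not overlap. It stood at 1066, 1083 and 1016 normalized counts in controls and at 1361, 1083 and 1189 in p300-ifKO mice. The separation rested on a margin below 1 count, since p300-ifKO replicate 2 and control replicate 2 round to the same value. Of the 7 members with a mean of at least 10 normalized counts, 2 lay higher without overlap and 0 lower, beside 4.09% of 17070 genes higher and 3.37% lower. The log2 fold change of Esrra was 0.20 (SE 0.14, 95% interval −0.07 to 0.47, DESeq2 adjusted p 0.991).

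Esrrg (chromosome 1, 187608791 to 188214885, plus strand), an orphan receptor to which a tamoxifen metabolite binds, measured 451, 451 and 494 normalized counts in controls and 269, 473 and 417 in p300-ifKO mice. Again p300-ifKO replicates 1 and 3 were below the control range and replicate 2 lay within it. Its log2 fold change was −0.27 (SE 0.22, 95% interval −0.70 to 0.17, DESeq2 adjusted p 0.991). Esrrb (chromosome 12, 86361117 to 86521628, plus strand), best known from pluripotent cells, gave 48.7, 45.2 and 45.9 normalized counts in controls, against 44.0, 52.1 and 44.4 in p300-ifKO mice. Its groups overlapped, and its log2 fold change was 0.01 (SE 0.29, 95% interval −0.57 to 0.59, DESeq2 adjusted p 0.997).

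**Figure D2:**
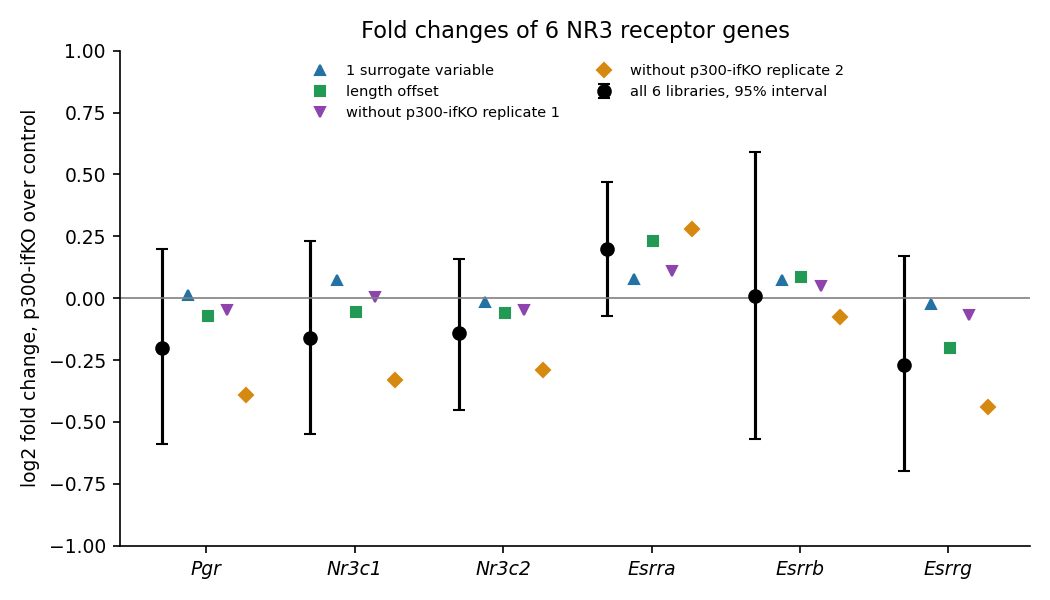
Log2 fold change of p300-ifKO over control for 6 receptor genes, with the 95% interval of the fit to all 6 libraries (black) and the values of 4 alternative fits (coloured). All 6 intervals cross 0, and Pgr, Nr3c1, Nr3c2 and Esrrg lie lowest without p300-ifKO replicate 2 and near 0 with 1 surrogate variable.

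Much of the spread of the receptors lay between the p300-ifKO mice, and 4 of them shared its order. On a log2 scale relative to the control mean, Pgr, Nr3c1, Nr3c2 and Esrrg were lowest in p300-ifKO replicate 1, at −0.55, −0.57, −0.37 and −0.79. In p300-ifKO replicate 2 the same 4 genes were at 0.14, 0.13, 0.11 and 0.02. Esrra ran the other way, at 0.37 in p300-ifKO replicate 1, 0.17 in replicate 3 and 0.04 in replicate 2. Esr1 was also highest in p300-ifKO replicate 1 and lowest in replicate 2, whereas Ep300 was lowest in replicate 1 and highest in replicate 2.

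The libraries also differed in a trend over gene length. Spearman's rho between exonic length and the log ratio of a library to the mean of the 6 libraries, over 17054 genes that are not independent replicates, was −0.50 in p300-ifKO replicate 1, 0.41 in replicate 2 and −0.28 in replicate 3. In the control libraries it was 0.18, 0.16 and 0.41. The exonic lengths were 8546 bases for Pgr, 7684 for Nr3c1, 6474 for Nr3c2 and 6208 for Esrrg, and 4414 for Esrra. Members of similar length could lie apart. Esrrb, with 6047 bases, lay at −0.08 in p300-ifKO replicate 1, where Esrrg was at −0.79. Esr1 was also highest in that library. The paper places its rise in the exons of the creERT2 construct. Its full length of 13661 bases therefore does not describe those reads, and Esr1 cannot be compared with the trend. With an offset for length the log2 fold changes were −0.073 for Pgr, −0.056 for Nr3c1, −0.06 for Nr3c2 and −0.20 for Esrrg. They were 0.23 for Esrra and 0.087 for Esrrb. The part of the trend in each receptor's values was not tested.

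**Figure D3:**
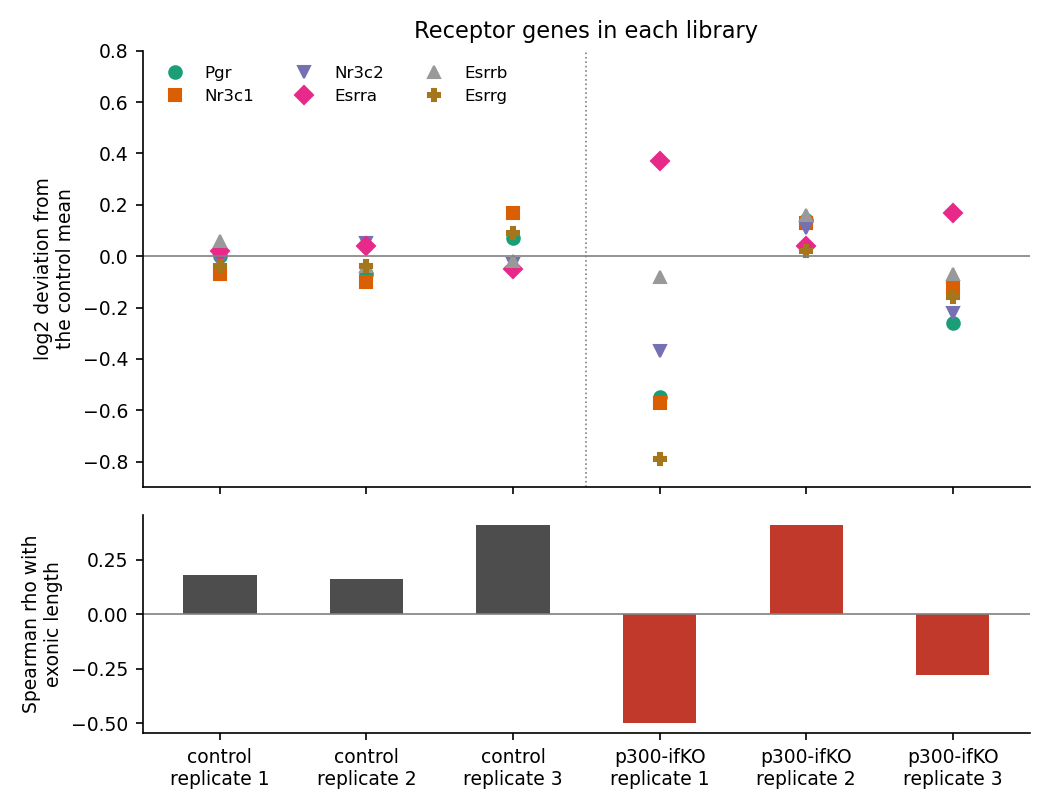
Upper panel: log2 deviation of 6 receptor genes from their control mean in each library. Lower panel: Spearman's rho between exonic length and the log ratio of that library to the mean of the 6 libraries (dark grey control, red p300-ifKO). In p300-ifKO replicate 1, where rho is −0.50, Esrra lies at 0.37 and Esrrg at −0.79.

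The fold changes of the receptors depended on which p300-ifKO mice were included. Without p300-ifKO replicate 2, DESeq2 gave 3 of them, Nr3c2 (−0.29), Pgr (−0.39) and Esrrg (−0.44), an unadjusted p under 0.05 and a lower level, beside 6.59% of all genes that were lower at that limit in the same 5 libraries. After adjustment, Esr1 alone among the members passed, beside 7.99% of genes, and the lowest adjusted p of another member was 0.0979 for Nr3c2. Without p300-ifKO replicate 1 the same 3 genes had log2 fold changes of −0.047, −0.048 and −0.066.

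The genes whose level followed a member most closely over the 6 libraries were named by Pearson's r of log2(normalized count + 1), as a description. For Esr1 they were Arsi (r = 0.992), Stambpl1 (0.982) and Rpl10 (0.981). The libraries form separate groups in Esr1, so these values mostly reflect the difference between groups, which was 2.56 on the log2 scale for Arsi but 0.16 for Stambpl1 and 0.20 for Rpl10. For Nr3c2 they were Cds2 (0.997), Crbn (0.997) and Dscaml1 (0.996), each lowest in p300-ifKO replicate 1 and highest in replicate 2. For Esrra they were Rpl7l1 (1.0 after rounding), Rpp25l (0.999) and Nt5c (0.997), each highest in p300-ifKO replicate 1.

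Genes around the receptors were read as lists. Of 136 tested genes, 0 passed the adjusted threshold in DESeq2 and 4 had an unadjusted p under 0.05, Ep300, Cox5a, Paqr7 and Gper1. Those 4 are 2.94% of the list genes, beside the 1.32% of all genes given above. Without p300-ifKO replicate 2, 11 of 98 list genes with an adjusted p passed (11.2%, beside the 7.99% given above). Bag1 (0.55), Ctsd (0.52), Cox5a (0.60), Sdhb (0.56) and Paqr7 (0.40) were then higher, and Ep300 (−1.36), Ncoa2 (−0.77), Ppargc1a (−0.52), Ccnd1 (−0.71), Thrb (−0.64) and Zbtb16 (−1.69) lower.

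Chaperones bind steroid receptors that carry no ligand. Of 12 chaperones and cochaperones, 10 had a positive and 2 a negative log2 fold change, with a median of 0.076, and 0 passed. Bag1, an Hsp70 cochaperone, averaged 2120 ± 147 normalized counts (SD, n = 3) in controls, against 2739 ± 830 in p300-ifKO mice, with log2 fold change 0.37 (SE 0.22). Fkbp5, a cochaperone of the glucocorticoid receptor and one of its standard targets, measured 1882, 2089 and 1937 normalized counts in controls and 2086, 2012 and 2040 in p300-ifKO mice, with overlap between groups.

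The coregulators, which receptors recruit to activate or silence genes, had negative log2 fold changes in 13 of 13 cases, with a median of −0.26, and 0 of them passed. Ep300 itself is in the list. The lowest other than Ep300 were Ppargc1b (−0.65), a coactivator of the estrogen-related receptors, and Ncoa2 (−0.42, SE 0.29), a p160 coactivator. Crebbp, which encodes CBP, was at −0.05. All 13 were negative whichever library was left out, but the median moved, to −0.44 without p300-ifKO replicate 2 and −0.089 when p300-ifKO replicate 1 was left out. Leaving out control replicate 3 gave −0.13. It was −0.099 with a length offset, where 1 of 13 was positive, and −0.0081 with 1 surrogate variable, where 4 of 13 were.

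Enzymes that make or convert steroids set the local ligand supply. Of 18 tested enzymes, 10 had a positive and 8 a negative log2 fold change, with a median of 0.039, and 0 passed. Over the 9 enzymes with a mean of at least 10 normalized counts the median was 0.19, and over all 18 it lay between −0.02 and 0.18, the values when p300-ifKO replicates 1 and 2, respectively, were left out. Cyp11b2, Hsd17b3 and Sult1e1 were at 0 in all libraries. Hsd11b1, which regenerates active corticosterone, gave 880, 865 and 826 normalized counts in controls, against 1306, 861 and 1031 in p300-ifKO mice, and its log2 fold change was 0.31 (SE 0.18, DESeq2 adjusted p 0.991). Cyp17a1, an enzyme of androgen synthesis, had a mean of 0.34 normalized counts in control and 2.47 in p300-ifKO mice, and no fold is given at that level.

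Among glucocorticoid responsive genes, 10 of 20 had a positive and 10 a negative log2 fold change, with a median of −0.0073, and 0 passed. Sgk1, a kinase gene induced by corticosterone, stood at 1584, 1675 and 1595 normalized counts in controls and at 1615, 1665 and 1669 in p300-ifKO mice. Hif3a was at −0.32 (SE 0.22) and Arrdc2 at 0.28 (SE 0.21). The widest spread was in Zbtb16, which encodes a zinc finger repressor, with 1137, 1133 and 1579 normalized counts in controls and 216, 1623 and 578 in p300-ifKO mice, lowest again in p300-ifKO replicate 1.

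Among 14 genes responsive to estrogen or progesterone, 6 had a positive and 8 a negative log2 fold change, with a median of −0.12, and 0 passed. The sign of that median was not stable. It was 0.03 over the 10 genes with a mean of at least 10 normalized counts. Over the 11 genes that passed the edgeR filter it was 0.031, whereas unfiltered edgeR over all 14 gave −0.11. Without control replicate 3, where 13 genes were fitted, it was 0.076. Ccnd1, the cyclin D1 gene, measured 937, 817 and 893 normalized counts in controls and 425, 841 and 652 in p300-ifKO mice, with log2 fold change −0.46 (SE 0.24, unadjusted p 0.0527, DESeq2 adjusted p 0.991). Ctsd, which encodes cathepsin D, was at 0.34 (SE 0.22). Of 16 target genes of the estrogen-related receptors, 11 had a positive and 5 a negative log2 fold change, with a median of 0.075, and 0 passed. Cox5a, a subunit of cytochrome c oxidase, gave 843, 864 and 779 normalized counts in controls, against 1478, 901 and 1035 in p300-ifKO mice, without overlap (log2 fold change 0.46, SE 0.20, unadjusted p 0.0242, DESeq2 adjusted p 0.991). Sdhb, a subunit of succinate dehydrogenase, was at 0.38 (SE 0.22) and its groups overlapped.

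Steroids also act through membrane proteins unrelated to NR3 receptors. Of 8 such genes, 5 had a positive and 3 a negative log2 fold change, with a median of 0.041, and 0 passed. Gper1, the G protein-coupled estrogen receptor gene, stood at 92.5, 85.1 and 71.4 normalized counts in controls and at 132, 104 and 120 in p300-ifKO mice. Its groups did not overlap (log2 fold change 0.51, SE 0.23, unadjusted p 0.0278, DESeq2 adjusted p 0.991). Paqr7, a membrane progestin receptor gene, measured 1667, 1599 and 1496 normalized counts in controls and 2245, 1750 and 1944 in p300-ifKO mice, also without overlap (log2 fold change 0.32, SE 0.14, unadjusted p 0.0246, DESeq2 adjusted p 0.991).

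Of 39 other nuclear receptor genes, 12 had a positive and 27 a negative log2 fold change, with a median of −0.077, and 0 passed. Hnf4a was at 0 in all libraries. Thrb, the thyroid hormone receptor beta gene, gave 1165, 1043 and 1325 normalized counts in controls, against 613, 1105 and 897 in p300-ifKO mice, with log2 fold change −0.43 (SE 0.22). Nr2e1, a receptor gene of neural stem cells, stood at 441, 431 and 443 normalized counts in controls and at 316, 384 and 394 in p300-ifKO mice, below all controls (log2 fold change −0.26, SE 0.15, DESeq2 adjusted p 0.991).

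**Figure D4:**
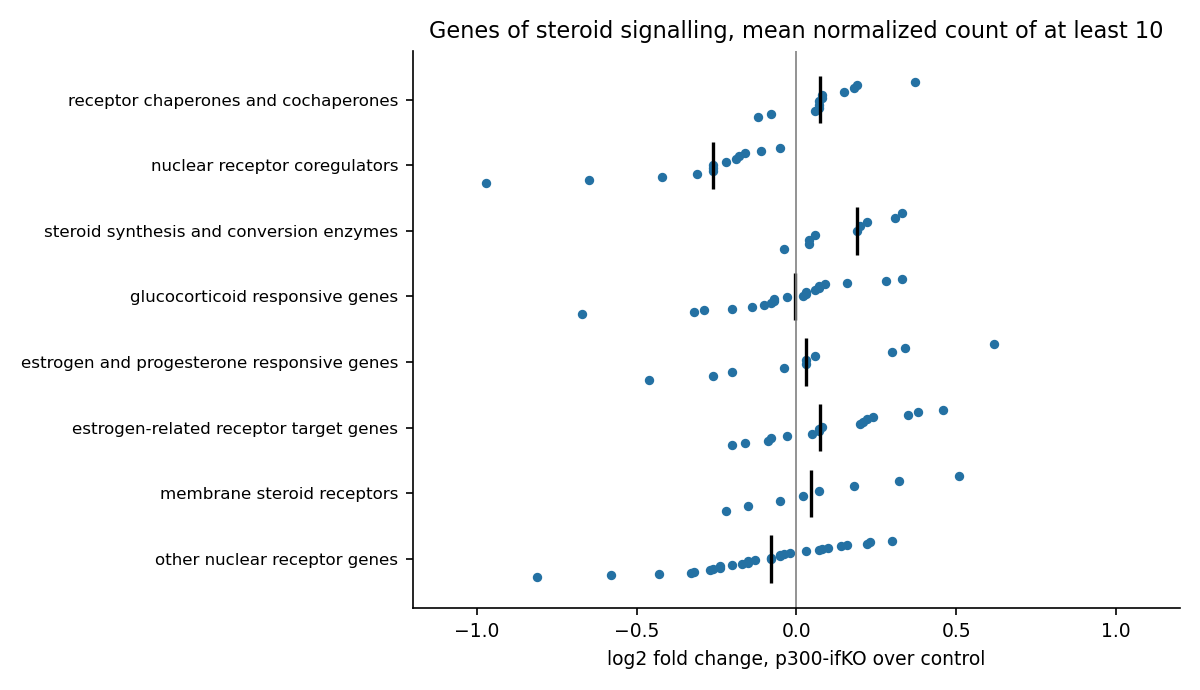
Log2 fold change of p300-ifKO over control for the genes of each list with a mean of at least 10 normalized counts (points) and their median (black line), which differs from the median over all tested genes where low genes are left out. The coregulators, with their median at −0.26, all lie below 0, and none of the genes plotted passed the adjusted threshold in DESeq2.

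Markers of other cell types were measured beside the receptors. Microglial markers summed to between 9317 and 10261 normalized counts in control and between 10282 and 12717 in p300-ifKO libraries. At an unadjusted p under 0.05 in DESeq2, 3 of 9 were higher. That limit was passed in either direction by 1.32% of all genes, a share that includes genes with low counts. Astrocyte markers summed to between 113416 and 116917 in control and between 98795 and 112286 in p300-ifKO libraries, with 1 of 9 lower at that limit, and of the excitatory neuron markers 1 of 10 was higher. Choroid plexus markers varied between 765 and 3861 in control and between 1430 and 5573 in p300-ifKO libraries, and thalamic markers between 1487 and 1786 and between 1551 and 1704. The part of these cells in the receptor values was not tested.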

How the data were processed

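The authors trimmed single-end 50-base reads (Trim Galore 0.6.4, FastQC 0.11.8), aligned them with STAR 2.6.1 to GRCm38, filtered by mapping quality and deposited raw counts per Ensembl gene from Rsubread, with exonic lengths. The submitters' processing notes also name DESeq2 1.30.1. Total counts were between 23151568 and 28433823 per library. Of 55471 identifiers, 55144 (99.41%) matched GENCODE M21 symbols. Groups came from sample titles, and the number of unused sample columns was 0.

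p300-ifKO and control were compared with DESeq2 1.42.0 (R 4.3.3), a two-sided Wald test without covariate and with default filters, adjusted by Benjamini-Hochberg over 32773 genes, with a threshold of 0.05. edgeR 4.0.16 (quasi-likelihood) was run beside it. The ratio of Nr3c2 to Nr3c1 was tested by exact permutation. TPM used the deposited lengths, and per-library deviations a pseudocount of 1. Alternatives were limma-voom (limma 3.58.1), TMM factors, a minimum of 10 counts in 3 libraries, filters off, a replicate block, 1 surrogate variable (sva 3.50.0), length and GC offsets (mgcv 1.9.3) and leaving out each library. The fits were tested on simulated data.

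The genes named were the 8 members, Ep300, Crebbp, Camk2a, Arsi, per list the called genes and the 2 with the smallest unadjusted p, and the 3 genes most like Esr1 and the 2 other members with the highest mean TPM over 6 libraries. Fkbp5, Sgk1, Zbtb16, Ppargc1b and Ppargc1a were added after their values were seen. Members and lists were chosen with earlier results of these data known. Sts and Wisp2 were not analysed here. Camk2a had a log2 fold change of −0.013. Markers of interneurons, oligodendrocytes, endothelium and blood had median log2 fold changes of −0.057, 0.17, −0.084 and −0.18. A further gene that the naming rule covers is not reported here.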

Additional observations from a re-analysis of the deposited data

How the results depend on the processing

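Over 17 alternatives, Esr1 stayed called, with log2 fold changes between 4.64 and 5.26, and 0 of the other 7 members was called in any (Esr2 could be fitted in 12 of them), with the fold change of Nr3c2 and Esrrg negative and that of Esrra positive in all of them. Without each library in turn, called genes numbered between 2 and 921, the upper value without p300-ifKO replicate 2, and called genes of the lists between 0 and 11, again the upper value without p300-ifKO replicate 2. Called members numbered 1 in each of these fits. With a replicate block the number of called genes was 4, and Esr1 remained the only called member (log2 fold change 4.93). The deviations of same-numbered libraries correlated at 0.27, −0.28 and 0.14. With 3 mice per group, these values cannot decide whether the numbers pair the mice. With 1 surrogate variable, 1 list gene was called, Ep300 (−0.49), and the fold changes of Esr2, Pgr and Nr3c1 turned to 0.16, 0.011 and 0.073. Leaving out each library, Nr3c1 lay between −0.33 and 0.0048, the latter when p300-ifKO replicate 1 was omitted, Esr2 between −0.69 and 0.49, the latter when control replicate 3 was omitted, and Esrrb between −0.074 and 0.05, with negative values when p300-ifKO replicate 2 (−0.074) or control replicate 2 (−0.010) was omitted. The difference in the log2 ratio of Nr3c2 to Nr3c1 was −8.57e-05 with a length offset, 0.0292 with the block, and between −0.0672 and 0.103 without each library. The order of levels kept between 6 and 8 places of 8. The median of the steroid enzymes moved by more than the spread between controls in 10 of 17 alternatives and that of the estrogen and progesterone responsive genes in 8. Some of these fits held fewer genes: edgeR kept 9 of 18 enzymes (median 0.19) and 11 of 14 responsive genes (0.031). Unfiltered edgeR gave 0.051 and −0.11, beside 0.039 and −0.12 in the main fit. With all 18 enzymes fitted, their median was 0.18 without p300-ifKO replicate 2. The cause was not tested for any of these changes. Depth limits Esr2 most, with between 2 and 7 reads per library.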
